A study of Mus musculus with 9 samples.

Results

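The genes described here are the chemokine ligands and receptors in a table of mouse brain RNA-seq counts: every gene whose symbol starts with Ccl, Cxcl, Ccr or Cxcr and a digit, together with Cx3cl1, Cx3cr1, Xcr1 and the Ackr genes. The rule found 51 of the 18138 genes in the table, and Ackr1 was not analysed here. They comprise 21 CC ligands, 11 CXC ligands, 1 CX3C ligand, 15 receptors and 3 atypical receptors.

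Chemokines are small secreted or membrane-bound proteins that guide the movement of leukocytes, and they are named for the spacing of their first cysteines (CC, CXC and CX3C). They act through membrane-spanning receptors that couple to Gi proteins, whereas atypical receptors (Ackr genes) bind chemokines without classical G protein signalling and shape the gradients. In the brain, neurons are a main source of fractalkine (Cx3cl1), whose receptor Cx3cr1 is carried by microglia, and injured tissue is known to express ligands that attract monocytes and neutrophils.

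The data are 9 libraries of total RNA from mouse brain, 3 in each of 3 groups. The control group (libraries 4, 5 and 6) carries no label but control, so it is not known here whether these mice had sham surgery. The MCAO group (libraries 4, 5 and 6) had middle cerebral artery occlusion, a surgical model of ischaemic stroke. The hypidone group (libraries 2, 7 and 8) had MCAO and then hypidone hydrochloride (YL-0919), given at 5 mg/kg on 7 days in a row. No group received hypidone without MCAO. Strain, age, brain region, hemisphere and the time from surgery to sampling are not in the labels. The labels do not say that each library is a separate animal, so the p-values measure the spread between these libraries, part of which may be technical.

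Total counts ran from 32075682 to 37325027 per library, so 3 counts corresponded to between 0.0781 and 0.0958 CPM (counts scaled to a common library total). The biological coefficient of variation across genes was 29.3% in control, 41.5% in MCAO and 14.5% in hypidone libraries. MCAO 5 and control 5 stood apart from the rest of their groups. The summed level of markers of monocytes and macrophages reached 1685 CPM in MCAO 5, beside 27.7 (MCAO 4) and 175 (MCAO 6). Most of that sum was Lyz2, at 1468 CPM in MCAO 5. Ms4a7, Mrc1, Cd163, Msr1, F10 and Chil3 were also highest in MCAO 5. Ly6c2 and Plac8 were highest in hypidone 7, at 1.15 and 1.89 CPM. Markers of hippocampal neurons summed to 494 CPM in control 5 and to between 31.3 and 45.7 in the other 8 libraries. Of the 30 chemokine and receptor genes that passed the filter on low counts, 24 had their highest CPM in an MCAO library and 14 had it in MCAO 5. Over all 14756 genes tested, 52.6% were highest in an MCAO library and 25.6% in MCAO 5. Some of the 30, such as Ccl2, Ccl4 and Ccl7, passed the filter only through MCAO and hypidone libraries. The contrast with all genes is therefore described only. The 21 genes that did not pass are given as raw counts, without a test.

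Expression was dominated by a few genes. Cx3cl1, Cxcl14, Cxcl12, Cx3cr1 and Ccl27a had at least 16043 counts each in all and together made up 93.0% of the 361034 counts of the 51 genes, while 22 genes had fewer than 100 counts over the 9 libraries. Per length, in the authors' deposited FPKM values (fragments scaled by library total and gene length), Cx3cl1 had a mean of 277.9 in control libraries, followed by Cxcl14 at 73.95, Ccl27a at 44.33, Cx3cr1 at 16.46, Cxcl12 at 7.955 and the atypical receptor Ackr3 at 5.12. In MCAO libraries Cx3cl1 had a mean FPKM of 121.4 and Ccl3, at 0.1468 in control libraries, had 7.384. In hypidone libraries these means were 326.5 and 0.475.

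**Figure D1:**
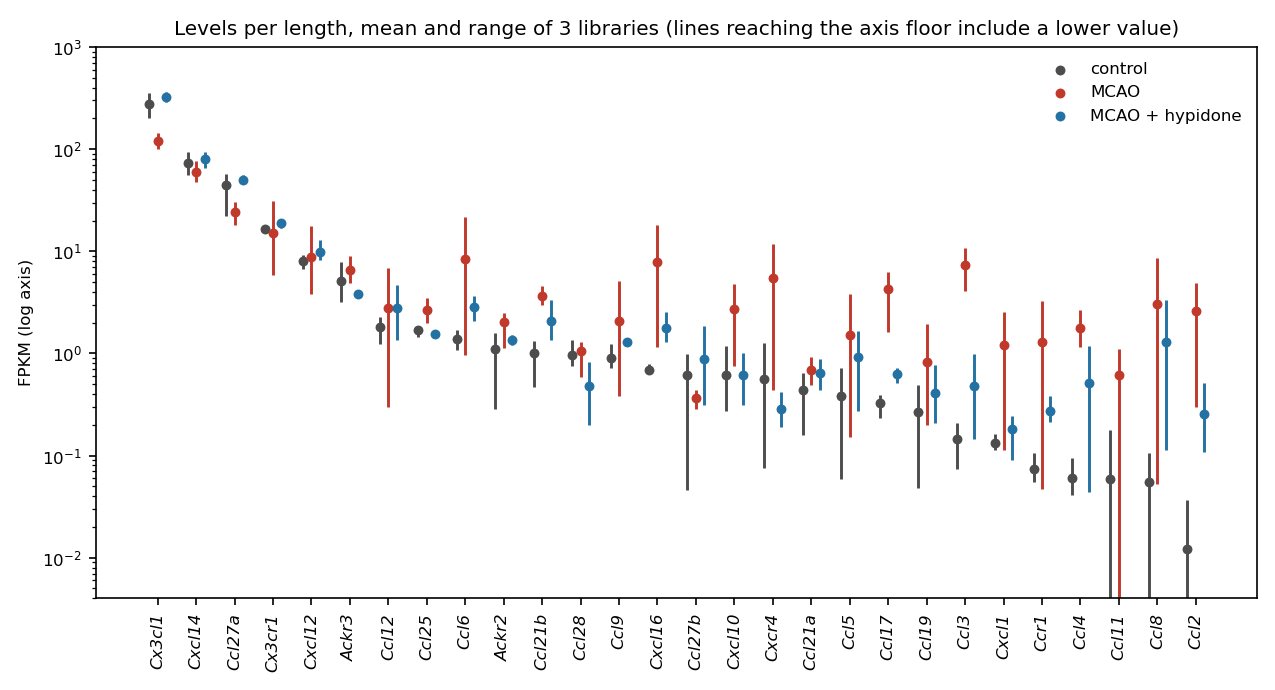
Deposited FPKM (log axis) of 28 chemokine and receptor genes with a mean of at least 0.5 in some group. Points are means of 3 libraries and lines run from the lowest to the highest library. Cx3cl1 stands highest in every group, and the MCAO lines are the longest for genes such as Cxcl16 and Cxcr4.

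The comparison of MCAO with control asks which of these genes differed in the brain after arterial occlusion. The receptor Ccr1 and the ligands Ccl2, Ccl3, Ccl4, Ccl17, Ccl21b and Cxcl16 were higher in MCAO libraries, and Cx3cl1 was lower. Here and below a gene is called higher or lower where edgeR's quasi-likelihood test, adjusted by the Benjamini-Hochberg method over all genes tested, gave p under 0.05. These are 8 of 30 genes (26.7%), beside 20.4% of all genes tested. In direction, 7 were higher (background 10.6%) and 1 was lower (background 9.81%). The estimate was above 0 for 24 genes and below 0 for 6, with a median log2 fold change of 1.85 beside 0.01 for all genes. Ccl2, Ccl3, Ccl4, Ccl7, Ccl8 and Cxcr2 had at most 6 counts in each control library. They passed the filter only through MCAO or hypidone libraries, which nearly fixed their sign. Ccr1, with 5, 11 and 6 counts in control libraries, also passed mainly through MCAO and hypidone libraries. The shares called, the signs, the median and the ranges that follow are therefore described only. No excess over all genes is read from them. The CPM range of MCAO libraries lay wholly above that of the controls for 7 genes (16.5% of all genes) and wholly below it for 1 (17.0%), beside 33.5% of all genes in either direction. Leaving out control 4 brought the number called to 4, leaving out control 6 brought it to 3, leaving out MCAO 6 brought it to 5, and leaving out MCAO 4 brought it to 14. These fits tested 37, 37, 33 and 36 of the chemokine and receptor genes. Calls over all genes, 1567 higher and 1448 lower in the reported fit, moved as well. They were 543 and 700 without control 4 and 480 and 613 without control 6. Without MCAO 6 they were 717 and 594, and without MCAO 4 they were 2357 and 1918. When only control and MCAO libraries were fitted, Ccl3, Ccl4 and Ccl17 were called, while Ccl21b (edgeR, adjusted p = 0.0591), Ccr1 (0.111), Cx3cl1 (0.0549) and Cxcl16 (0.0728) were not.

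Hypidone libraries were compared with MCAO libraries to ask what differed when the drug had been given after the occlusion. Ccl3, Ccl17 and the receptor Cxcr4 were lower in hypidone libraries, and Cx3cl1 was higher. These 4 of 30 genes are 13.3%, beside 16.5% of all genes tested. In direction, 1 was higher (background 8.23%) and 3 were lower (background 8.28%). Estimates were above 0 for 10 genes and below 0 for 20, with a median log2 fold change of -0.71 beside -0.04 for all genes. Genes such as Ccl3 and Ccl4 passed the filter mainly through MCAO libraries. The shares called, these signs and the ranges that follow are therefore described only. Ranges did not overlap for 7 genes, 2 higher (20.9% of all genes) and 5 lower (19.0%), beside 39.9% in either direction. Without hypidone 7 the number called was 1, without hypidone 2 or hypidone 8 it was 2, without MCAO 5 it was 8, and without MCAO 4 it was 11. These fits tested 37, 37, 34, 32 and 36 of the chemokine and receptor genes. Calls over all genes, 1215 higher and 1222 lower in the reported fit, moved as well. They were 350 and 234 without hypidone 7, 346 and 250 without hypidone 2, and 315 and 233 without hypidone 8. Without MCAO 5 they were 1616 and 1598, and without MCAO 4 they were 1752 and 2123. Ccl3, Ccl17 and Cx3cl1 were called in both comparisons, which share the MCAO libraries.

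Between hypidone and control libraries, edgeR's quasi-likelihood test called 0 of the 30 genes and 0% of all genes. Ccl2, Ccl4 and Ccl7, 3 of the 30, had an unadjusted p under 0.05, and DESeq2 called 0 of them. All 3 passed the filter only through MCAO and hypidone libraries. The share of all genes under that unadjusted p is not given here, so nothing is read from this count. The log2 fold change was nevertheless above 0 for 26 genes and below 0 for 4, with a median of 0.57 beside -0.01 for all genes. Genes scarce in control libraries, Ccl2, Ccl7 and Ccl8 among them, passed the filter only through other libraries. The signs and the ranges that follow are therefore described only. The CPM ranges did not overlap for 9 genes (Ccl2, Ccl6, Ccl7, Ccl8, Ccl9, Ccl17, Ccl21b, Ccr1 and Cxcl16), all of them higher in hypidone libraries, beside 6.57% of all genes, 3.86% higher and 2.71% lower. Without a call, these values do not show that the levels of hypidone and control libraries were equal.

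**Figure D2:**
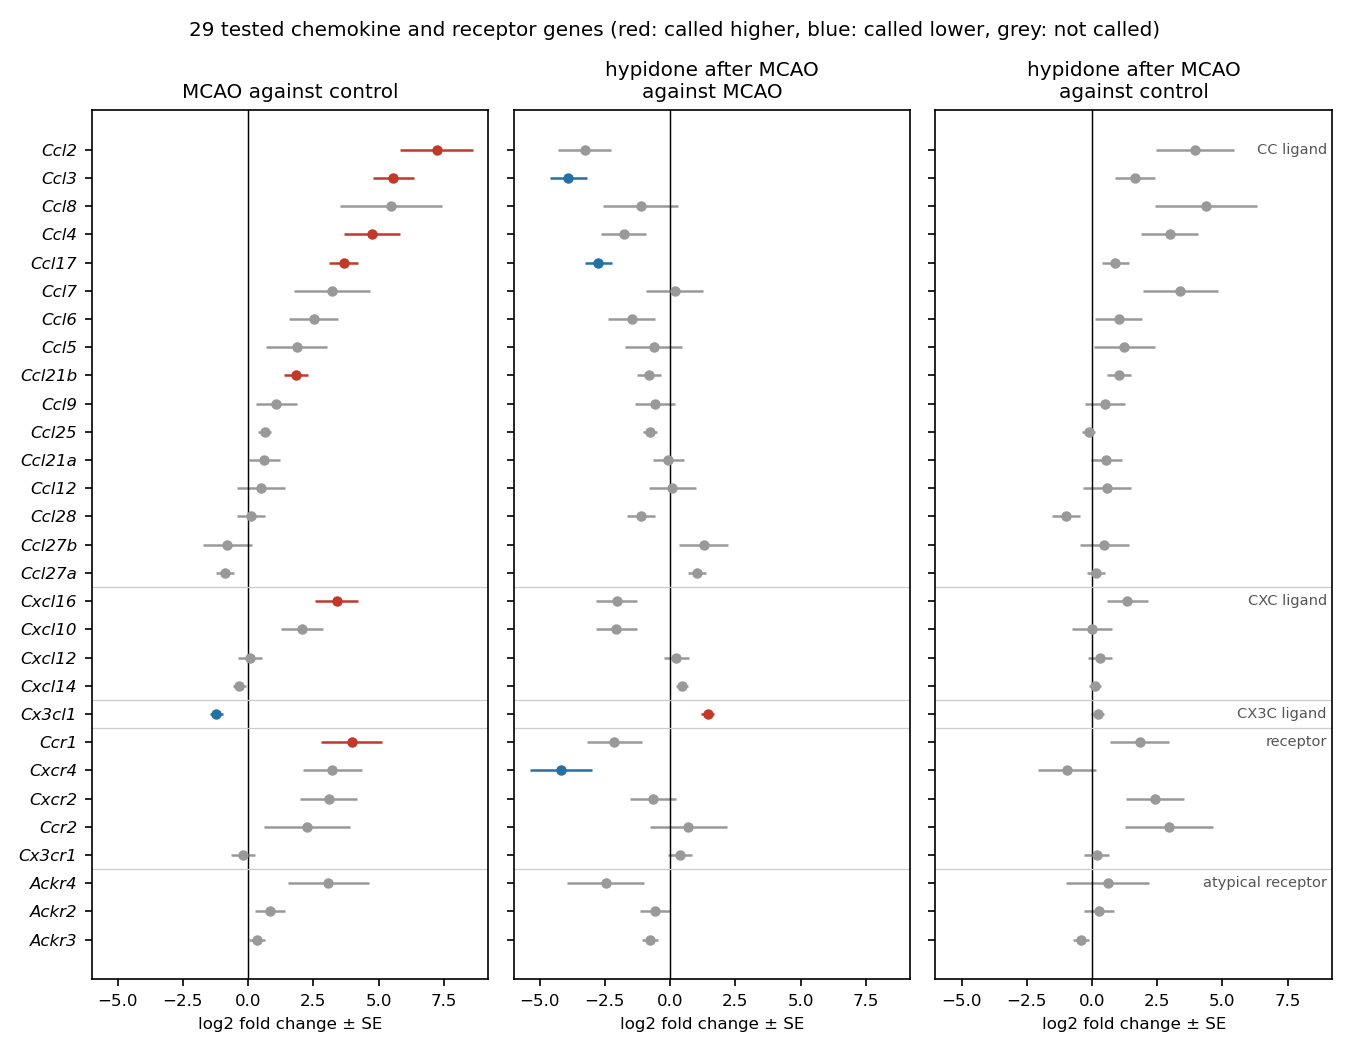
Log2 fold change with its standard error for 29 of the 30 genes tested, in the comparisons of MCAO with control, hypidone with MCAO, and hypidone with control. Red points are called higher, blue points called lower and grey points not called. The left panel holds 7 red points and 1 blue point, the middle panel 1 red and 3 blue, and the right panel grey points only.

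Among the CC ligands, 16 of 21 were tested, and 5 were called higher with MCAO (31.2%, beside 10.6% of all genes). Of the genes called, Ccl2, Ccl3 and Ccl4 passed the filter only through MCAO and hypidone libraries, so no excess is read from this share. Ccl3 (chromosome 11, 83647844 to 83649355, minus strand, mm10) encodes a ligand of Ccr1. Its raw counts were 4, 6 and 2 in the control libraries, 216, 303 and 113 in the MCAO libraries, and 27, 8 and 4 in the hypidone libraries. Every MCAO library lay above every other library. The mean level was 0.117 ± 0.052 CPM in control, 5.71 ± 2.42 in MCAO and 0.377 ± 0.352 in hypidone (SD, n = 3). The log2 fold change was 5.56 ± 0.79 (SE) for MCAO against control (edgeR, adjusted p = 0.00476) and -3.91 ± 0.70 for hypidone against MCAO (edgeR, adjusted p = 0.0105). The second call was lost without hypidone 7 (edgeR, adjusted p = 0.0532).

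Ccl4, which encodes a related attractant of macrophages and T cells, lies 13228 bases from Ccl3 (chromosome 11, 83662584 to 83664683, plus strand). It had 2, 1 and 1 counts in control, 65, 35 and 27 in MCAO and 27, 7 and 1 in hypidone libraries. The groups control and MCAO did not overlap, while hypidone 2 equalled the lowest MCAO count and hypidone 8 was in the control range. MCAO against control gave a log2 fold change of 4.76 ± 1.08 (edgeR, adjusted p = 0.0185), and the call was lost without control 4 (adjusted p = 0.0578) or control 6 (adjusted p = 0.0741). Against MCAO, hypidone libraries gave -1.77 ± 0.86 (edgeR, adjusted p = 0.178).

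Ccl2 (chromosome 11, 82035571 to 82037453, plus strand), which encodes the main ligand of the monocyte receptor Ccr2, was nearly absent from control libraries. The counts were 0, 0 and 1 in control, 9, 76 and 138 in MCAO, and 4, 14 and 3 in hypidone libraries. All MCAO counts were above all control counts, and hypidone 7 lay within the MCAO range. With 223 counts against 1, the depth-scaled ratio of MCAO to control was 206 (exact 95% interval 36.5 to 8160, counting error only), and the edgeR adjusted p was 0.0107. Hypidone libraries held 21 counts, a ratio to control of 20.7 (3.33 to 857). The log2 fold change of hypidone against MCAO was -3.27 ± 1.01 (edgeR, adjusted p = 0.0551), just outside the threshold.

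Ccl7 encodes a further ligand of Ccr2 and other monocyte receptors, Ccl8 encodes another CC ligand, and Ccl12 is a mouse ligand of Ccr2. Ccl8 counts were 0, 2 and 1 in control, 1, 155 and 11 in MCAO and 8, 58 and 2 in hypidone libraries. Ccl7 counts were 2, 0 and 0, then 0, 12 and 12, then 5, 15 and 5 in the same order. Both genes were high in some MCAO libraries and within the control range in MCAO 4. The ratio of MCAO to control was 51.3 (17.3 to 251) for Ccl8, whose edgeR adjusted p was 0.0756, and 11.1 (2.75 to 96.6) for Ccl7, whose adjusted p was 0.144, with intervals for counting error only. Without MCAO 5 the fitted log2 fold change of Ccl8 with MCAO was 2.38 in place of 5.48. Ccl12 had 34, 24 and 41 counts in control, 6, 132 and 21 in MCAO and 43, 84 and 25 in hypidone libraries, so that its lowest and highest counts were both in MCAO libraries.

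Ccl17 (chromosome 8, 94810453 to 94812036, plus strand) encodes a ligand of Ccr4. It had 11, 21 and 18 counts in control, 262, 84 and 327 in MCAO, and 26, 32 and 36 in hypidone libraries. The groups did not overlap, with hypidone libraries between control and MCAO. Its lowest MCAO count was in MCAO 5. Mean levels were 0.488 ± 0.119 CPM, 6.21 ± 3.56 CPM and 0.916 ± 0.155 CPM in control, MCAO and hypidone (SD, n = 3). The log2 fold change was 3.66 ± 0.55 with MCAO (edgeR, adjusted p = 0.00526) and -2.76 ± 0.52 for hypidone against MCAO (edgeR, adjusted p = 0.0120). The second call was lost when hypidone 2 (adjusted p = 0.0603), hypidone 7 (0.0555) or hypidone 8 (0.0532) was left out. Ccl22, which encodes the other ligand of Ccr4, had 2, 5 and 2 counts in control, 10, 11 and 16 in MCAO and 4, 2 and 4 in hypidone libraries. All its MCAO counts were above the rest, but it did not pass the filter.

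Ccl21b, Ccl21a and Ccl19 encode ligands of Ccr7, the receptor that guides dendritic cells and T cells to lymphoid tissue. Ccl21b had 172, 70 and 170 counts in control, 685, 433 and 499 in MCAO and 191, 462 and 216 in hypidone libraries. MCAO libraries lay above control libraries, and hypidone 7 lay within the MCAO range. With MCAO, Ccl21b gave a log2 fold change of 1.83 ± 0.47 (edgeR, adjusted p = 0.0282) and -0.80 ± 0.46 for hypidone against MCAO (edgeR, adjusted p = 0.245). The MCAO call was lost without control 4 (adjusted p = 0.0583), control 6 (0.0700) or MCAO 6 (0.0669). Whether the value belongs to Ccl21b alone cannot be told. All of its 50-base windows (100% of 353) in the annotated transcripts also occur in the neighbouring copies Gm10591 or Gm13304. The deposited FPKM values use a length of 4053 bases where the annotated exons cover 402, so these windows may cover only part of what was counted. Gm10591 itself had 39, 13 and 55 counts in control and 40, 5 and 32 in MCAO libraries, and Gm13304 had 5 in all. Ccl21a, which shares 71.6% of its windows with other genes, had 18, 5 and 15 counts in control, 30, 20 and 15 in MCAO and 19, 26 and 13 in hypidone libraries and was not called. Ccl19 (9, 1 and 5, then 7, 39 and 4, then 5, 4 and 15) and Ccl21d (5, 0 and 13, then 4, 1 and 0, then 0, 0 and 2) did not pass the filter.

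Ccl6 and Ccl9, ligands of Ccr1 made by myeloid cells, were far higher in MCAO 5 than in any other library. Ccl6 had 61, 89 and 53 counts in control, 52, 1111 and 124 in MCAO and 135, 179 and 103 in hypidone libraries. Ccl9 had 74, 136 and 74 counts in control, 43, 546 and 75 in MCAO and 130, 131 and 141 in hypidone libraries. For both genes MCAO 4 lay below every control library. Neither was called in any comparison (edgeR, adjusted p = 0.0835 for Ccl6 and 0.341 for Ccl9 with MCAO). Without MCAO 5, the log2 fold change of Ccl9 with MCAO turned from 1.08 to -0.73, and that of hypidone against MCAO turned from -0.58 to 1.23 (edgeR, adjusted p = 0.0404). Ccl5, a T cell and monocyte attractant that binds Ccr1 and Ccr3, had 1, 7 and 13 counts in control, 3, 72 and 11 in MCAO and 15, 30 and 5 in hypidone libraries, and was again highest in MCAO 5.

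The remaining CC ligands are known mainly for homeostatic roles in skin, gut or thymus. Ccl27a, known as a skin T cell attractant, had the most counts of the CC ligands, 2383, 1075 and 2414 in control, 1479, 856 and 1120 in MCAO and 2157, 2030 and 2529 in hypidone libraries. MCAO libraries lay below hypidone libraries without overlap, while control 5 lay inside the MCAO range. Its log2 fold change was -0.90 ± 0.35 with MCAO (edgeR, adjusted p = 0.0944) and 1.04 ± 0.35 for hypidone against MCAO (edgeR, adjusted p = 0.0689). Ccl25, the ligand of Ccr9, had 150, 169 and 125 counts in control, 244, 182 and 313 in MCAO and 143, 124 and 144 in hypidone libraries, so that MCAO lay above hypidone without overlap. It was not called (edgeR, adjusted p = 0.118 with MCAO and 0.0767 for hypidone against MCAO), but without MCAO 5 it was, at 0.84 (adjusted p = 0.0245) and -0.97 (adjusted p = 0.0160). Ccl27b (114, 6 and 98, then 58, 47 and 36, then 39, 222 and 59 counts) and the mucosal ligand Ccl28 (104, 212 and 109, then 203, 195 and 89, then 124, 29 and 58 counts) overlapped between all groups. Of the windows of Ccl27b, 98.1% also occur in Gm13306 and 61.4% in Ccl27a, so its counts may hold reads of these copies. Its deposited FPKM values use a length of 3570 bases where the annotated exons cover 425, so these windows may cover only part of what was counted. Ccl27a shares 45.0% of its windows.

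Ccl11, an eosinophil attractant, did not pass the filter, and its counts fell into 3 libraries. It had 0, 7 and 0 counts in control, 0, 42 and 29 in MCAO and 0 in every hypidone library. With 71 counts in MCAO and 0 in hypidone libraries, its level was at least 22.1-fold lower in hypidone than in MCAO libraries, against a floor of 3 counts over the group. That bound covers counting error only, and MCAO 4 also had 0 counts. Ccl24, which binds the same receptor, had 4, 6 and 6 counts in control, 2, 4 and 11 in MCAO and 4, 8 and 2 in hypidone libraries, with no group apart.

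**Figure D3:**
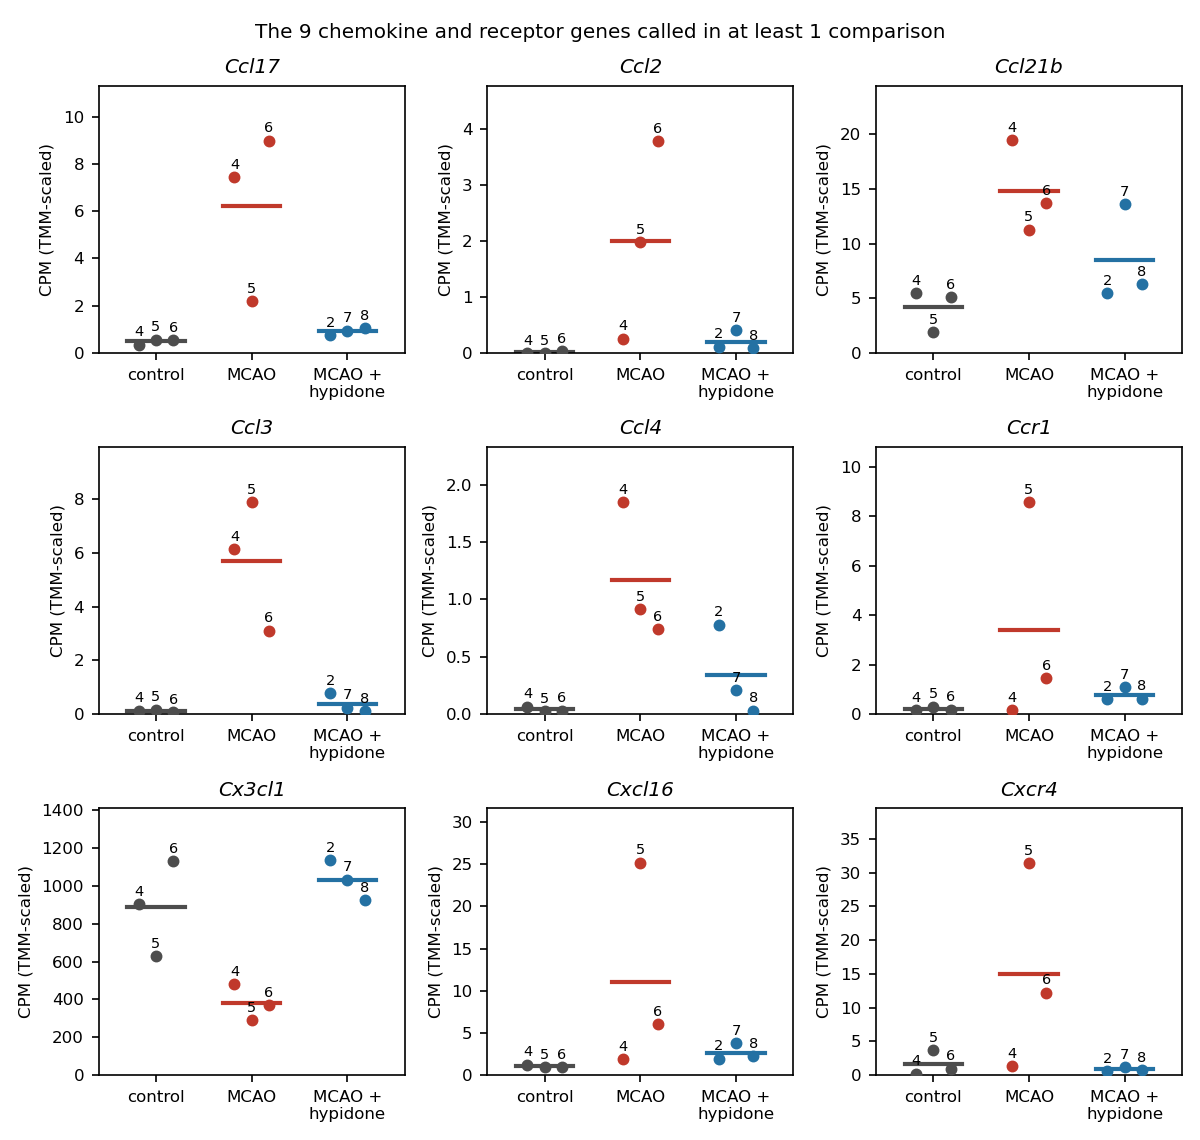
TMM-scaled CPM of the 9 genes called in at least 1 comparison, with a point per library, numbered as in the text, and the mean of the 3 libraries as a line. MCAO points of Ccl3 lie above all others and those of Cx3cl1 below all others, and 1 MCAO library stands far above the other 2 for Cxcl16, Ccr1 and Cxcr4.

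Of the 11 CXC ligands 4 were tested, and Cxcl16 was called. Cxcl16 (chromosome 11, 70453983 to 70459984, minus strand) encodes a membrane-bound ligand of Cxcr6. It had 38, 35 and 32 counts in control, 65, 967 and 221 in MCAO and 68, 128 and 77 in hypidone libraries. Every MCAO and hypidone library was above every control library, and all 3 hypidone libraries lay between MCAO 4 and MCAO 6. The mean was 1.04 ± 0.149 CPM in control, 11 ± 12.4 in MCAO and 2.66 ± 0.976 in hypidone (SD, n = 3). MCAO against control gave 3.40 ± 0.83 on the log2 scale (edgeR, adjusted p = 0.0230). The call was lost without control 4 (adjusted p = 0.0707), control 5 (0.0519) or control 6 (0.0809), and without MCAO 5 the estimate was 1.94. Hypidone against MCAO gave -2.05 ± 0.77 (edgeR, adjusted p = 0.0955). The exons of Cxcl16 overlap those of Zmynd15 on the opposite strand over 18.3% of their length, and Zmynd15 itself had between 0 and 26 counts. Its receptor Cxcr6 had 4 counts in MCAO, 6 in hypidone and 0 in control libraries.

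Cxcl12 and Cxcl14 were the abundant CXC ligands. Cxcl12, the ligand of Cxcr4 and Ackr3, had 1552, 2089 and 2217 counts in control, 1018, 4477 and 1288 in MCAO and 2200, 3109 and 2015 in hypidone libraries. MCAO 5 was the highest library and the other MCAO libraries were the lowest, so the group mean did not describe any of them. Its log2 fold change with MCAO was 0.07 ± 0.46 (edgeR, adjusted p = 0.934). Without MCAO 5 it was -0.82 (edgeR, adjusted p = 0.0293), and hypidone against MCAO was 1.13 (adjusted p = 0.0110). Cxcl14, known as a constitutively expressed ligand, had 5863, 4020 and 4765 counts in control, 3994, 3333 and 5286 in MCAO and 4483, 5410 and 6364 in hypidone libraries, and its groups overlapped in every comparison.

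Cxcl1 and Cxcl2 encode ligands of the neutrophil receptor Cxcr2, and Cxcl10 encodes an interferon-induced ligand of Cxcr3. Cxcl10 had 42, 11 and 14 counts in control, 31, 99 and 187 in MCAO and 12, 38 and 20 in hypidone libraries. Cxcl1 had 5, 4 and 4 counts in control, 4, 35 and 85 in MCAO and 3, 7 and 8 in hypidone libraries. Cxcl2 had 1, 3 and 11 counts in MCAO and 0 in each of the other 6 libraries. All 3 genes were highest in MCAO 6 and next highest in MCAO 5. MCAO 4 was within the control range for Cxcl1 and Cxcl10. For Cxcl10 the log2 fold change was 2.06 ± 0.79 with MCAO (edgeR, adjusted p = 0.0931) and -2.06 ± 0.79 for hypidone against MCAO (edgeR, adjusted p = 0.101). Cxcl2, with 15 counts against 0, was at least 4.61-fold higher in MCAO than in control libraries, again against a floor of 3 counts and for counting error only. Cxcl1, with few counts outside MCAO 5 and MCAO 6, did not pass the filter. In the authors' deposited table its fold change with MCAO was 8.67, with a q-value of 0.0372.

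These 3 genes share a well-known class of promoter element, the kappaB motif, so the 250 bases before their annotated start are shown (RefSeq, GRCm38.p6, each 5′ to 3′ on the gene's strand). Capitals mark matches to GGG, any 5 bases and CC on either strand, and overlapping matches run together. The windows are chr5:90890995-90891244 on the plus strand for Cxcl1, chr5:90903649-90903898 on the plus strand for Cxcl2 and chr5:92348890-92349139 on the minus strand for Cxcl10.
Cxcl1: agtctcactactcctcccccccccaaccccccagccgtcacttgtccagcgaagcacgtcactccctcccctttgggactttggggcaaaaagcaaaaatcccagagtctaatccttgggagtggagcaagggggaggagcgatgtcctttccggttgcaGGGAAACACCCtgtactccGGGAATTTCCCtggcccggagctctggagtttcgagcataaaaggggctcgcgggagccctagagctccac
Cxcl2: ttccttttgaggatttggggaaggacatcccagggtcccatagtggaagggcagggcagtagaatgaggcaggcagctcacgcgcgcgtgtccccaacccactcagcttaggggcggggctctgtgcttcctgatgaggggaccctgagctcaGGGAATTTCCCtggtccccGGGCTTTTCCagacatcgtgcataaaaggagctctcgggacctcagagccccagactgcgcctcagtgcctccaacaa
Cxcl10: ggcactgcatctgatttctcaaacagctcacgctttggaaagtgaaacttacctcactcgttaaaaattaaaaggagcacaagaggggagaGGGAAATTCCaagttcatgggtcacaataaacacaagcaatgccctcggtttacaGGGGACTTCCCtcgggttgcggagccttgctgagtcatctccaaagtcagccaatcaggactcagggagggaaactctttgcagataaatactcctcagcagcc
The matched stretch nearest the start of Cxcl1, GGGAATTTCC at positions -71 to -62, also stood in Cxcl2 at -97 to -88 and in Cxcl3 at -73 to -64. Cxcl3 itself had 1 count in all. The motif is short and common. In windows from 250 bases before to 50 after the start, it stood in 23 of the 39 member genes with a promoter entry (59.0%). It stood in at least 1 window of 53.5% of all genes with an entry and of 71.2% of tested genes with an entry. Among the called genes with an entry, Ccl3, Ccl17, Ccl21b, Cx3cl1 and Cxcr4 had no match. Matches describe letters in these windows and do not show binding.

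The other CXC ligands were low. Cxcl13, which attracts B cells, had 1 count in control, 1, 49 and 2 in MCAO and 1 in hypidone libraries, so that nearly all its counts came from MCAO 5. Cxcl9, an interferon-induced ligand of Cxcr3, had 2, 0 and 2 counts in control, 2, 1 and 0 in MCAO, and 1, 63 and 2 in hypidone libraries. Nearly all Cxcl9 counts thus came from hypidone 7. Cxcl5, a further Cxcr2 ligand, had 2, 20 and 4 counts in control, 1, 6 and 2 in MCAO and 1, 4 and 17 in hypidone libraries, and Cxcl17 had 14 counts in MCAO against 1 in each of the other groups.

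Cx3cl1 (fractalkine, chromosome 8, 94772009 to 94782427, plus strand) lies 28025 bases before Ccl17 and moved in the opposite direction. Its counts were 28258, 23112 and 37583 in control, 16839, 11100 and 13508 in MCAO and 39386, 35005 and 31600 in hypidone libraries. Every MCAO library was below every control and hypidone library, while control and hypidone overlapped. Mean levels were 887 ± 251 CPM in control, 380 ± 95.1 in MCAO and 1031 ± 104 in hypidone (SD, n = 3). Fractalkine's log2 fold change was -1.22 ± 0.25 with MCAO (edgeR, adjusted p = 0.0132) and 1.44 ± 0.25 for hypidone against MCAO (edgeR, adjusted p = 0.00985). The MCAO call was lost without control 6 (adjusted p = 0.0518) or MCAO 6 (0.0532), and the hypidone call was kept under every alternative run, with an adjusted p of at most 0.0472. Summed neuronal markers were 10770, 6673 and 10770 CPM in control, 9491, 4887 and 6695 in MCAO and 9944, 9466 and 10460 in hypidone libraries, and their part in the Cx3cl1 result was not tested. Of these 6 markers, 0 were called with MCAO, and 1 was called higher in hypidone than in MCAO libraries (beside 8.23% of all genes). The markers did not all follow the sum. Tubb3 was lower in every MCAO library than in any control library. Slc17a7 was 1537, 1520 and 1819 CPM in control and 2018, 1128 and 1876 in MCAO libraries. In bulk RNA, fewer cells of a type and less RNA per cell cannot be told apart.

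Cx3cr1 (chromosome 9, 119901616 to 120069879, minus strand), the fractalkine receptor of microglia, had 1857, 2460 and 2041 counts in control, 819, 4155 and 1147 in MCAO and 2609, 2498 and 2187 in hypidone libraries. MCAO 5 was the highest of the 9 libraries, and MCAO 4 and MCAO 6 were the lowest. Cx3cr1 gave a log2 fold change of -0.20 ± 0.47 with MCAO (edgeR, adjusted p = 0.789) and 0.38 ± 0.47 for hypidone against MCAO (edgeR, adjusted p = 0.597). Without MCAO 5 it was -1.17 (edgeR, adjusted p = 0.00265) and 1.36 (adjusted p = 0.00176). Summed microglial markers did not follow the same order. They were 459, 453 and 417 CPM in control, 566, 1946 and 1008 in MCAO and 524, 554 and 461 in hypidone libraries. Among these markers Csf1r was called higher with MCAO, with 3059, 3908 and 3497 counts in control, 5521, 12611 and 10260 in MCAO and 4587, 4755 and 3510 in hypidone libraries. P2ry12 had 1655, 2035 and 1599 counts in control, 1072, 2001 and 1389 in MCAO and 1870, 1849 and 1736 in hypidone libraries, so that, as with Cx3cr1, MCAO 4 and MCAO 6 had the lowest counts.

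Of the 15 receptors, Cx3cr1 included, 6 were tested. Ccr1 (chromosome 9, 123962124 to 123968692, minus strand), a myeloid receptor for Ccl3, Ccl5, Ccl6 and Ccl9, had 5, 11 and 6 counts in control, 5, 329 and 53 in MCAO and 21, 37 and 21 in hypidone libraries. MCAO 4 had no more counts than the lowest control library, and all hypidone libraries were above the control libraries. The gene passed the filter mainly through MCAO and hypidone libraries. Its log2 fold change with MCAO was 3.96 ± 1.18 (edgeR, adjusted p = 0.0441). That call was lost under 10 of 14 alternatives, and without MCAO 5 the estimate was 1.90 (edgeR, adjusted p = 0.142). Ccr2, the monocyte receptor for Ccl2, had 0, 12 and 3 counts in control, 1, 77 and 1 in MCAO and 6, 79 and 30 in hypidone libraries. Its counts were high in MCAO 5, hypidone 7 and hypidone 8 and low in the other MCAO libraries, where Ccl2 had 9 and 138 counts. Cxcr2, the neutrophil receptor, had 2, 0 and 1 counts in control, 5, 11 and 15 in MCAO and 5, 12 and 1 in hypidone libraries. All MCAO counts were above all control counts, with a ratio of 9.53 (2.97 to 48.7, counting error only), but the gene was not called (edgeR, adjusted p = 0.0744).

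Cxcr4 (chromosome 1, 128588199 to 128592293, minus strand), the receptor for Cxcl12, had 7, 134 and 31 counts in control, 47, 1206 and 444 in MCAO and 19, 41 and 25 in hypidone libraries. All MCAO libraries were above all hypidone libraries, and control 5 lay inside the MCAO range. The mean level was 1.60 ± 1.80 CPM in control, 15.0 ± 15.2 in MCAO and 0.830 ± 0.342 in hypidone libraries (SD, n = 3). Cxcr4 gave a log2 fold change of 3.22 ± 1.13 with MCAO (edgeR, adjusted p = 0.0725) and -4.17 ± 1.19 for hypidone against MCAO (edgeR, adjusted p = 0.0443). The hypidone call was lost without control 6 (adjusted p = 0.0650), MCAO 5 (0.0848, estimate -3.04), MCAO 6 (0.0939), hypidone 2 (0.144), hypidone 7 (0.114) or hypidone 8 (0.146). The ratio of Cxcl12 to Cxcr4 in FPKM was 89.0, 6.26 and 28.7 in control, 8.70, 1.49 and 1.17 in MCAO and 46.5, 30.5 and 32.4 in hypidone libraries. Ligand and receptor were thus closest in MCAO 5 and MCAO 6 and furthest apart in control 4.

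The 9 untested receptors are known mainly from lymphocytes, dendritic cells and granulocytes. Ccr7 had 1, 0 and 1 counts in control, 17, 1 and 12 in MCAO and 2, 5 and 2 in hypidone libraries. Ccr6 had 0, 0 and 1 counts in control, 12, 3 and 6 in MCAO and 0, 1 and 0 in hypidone libraries, so that each MCAO library was above all others. The ratio of MCAO to control was 13.8 (3.51 to 119) for Ccr7 and 19.4 (3.11 to 801) for Ccr6, for counting error only. Cxcr3, the receptor for Cxcl9 and Cxcl10, had 1, 2 and 1 counts in control, 2, 18 and 4 in MCAO and 0, 3 and 2 in hypidone libraries. Ccr9 had between 2 and 21 counts per library, with the highest in MCAO 5. The others were barely counted. Ccr10 had 18 counts in all, Ccr1l1 had 15, Cxcr6 had 10, Ccr3 had 3 and Xcr1 had 2. Summed T cell markers ran from 0.272 to 1.30 CPM over the 9 libraries. Most of that sum was Cd4, at 0.163 to 1.09 CPM. Cd3e had 9 counts in all, Cd3d had 7 and Cd3g had 9, so the sum says little about T cells.

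**Figure D4:**
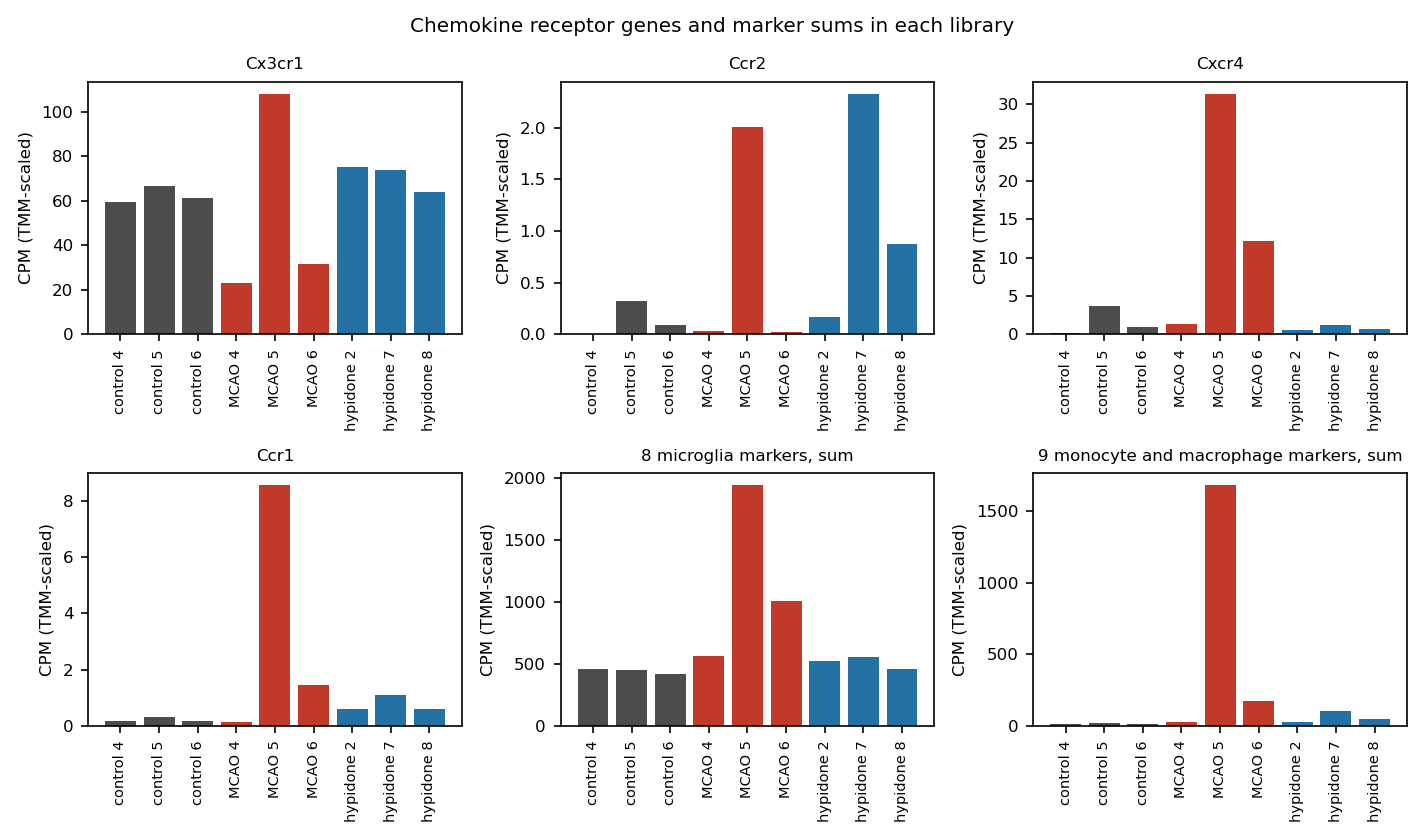
TMM-scaled CPM of chemokine receptor genes and of summed cell type markers in each of the 9 libraries, coloured by group. Bars for Cx3cr1 are lowest in MCAO 4 and MCAO 6 and highest in MCAO 5. The sum of monocyte and macrophage markers is highest in MCAO 5 at 1685 CPM, of which Lyz2 alone makes 1468.

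Markers of the cells that express chemokines and their receptors differed between the libraries as well. Beside the counts of markers called, the shares of all genes were 10.6% higher with MCAO, and 8.23% higher and 8.28% lower in hypidone than in MCAO libraries. Summed monocyte and macrophage markers were 16.0, 18.4 and 16.1 CPM in control, 27.7, 1685 and 175 in MCAO and 29.9, 107 and 45.1 in hypidone libraries, and 4 of the 8 tested were called higher with MCAO and 2 lower in hypidone than in MCAO libraries. Of the 8 microglial markers 4 were called higher with MCAO, and hypidone against MCAO gave 4 lower and 1 higher. Ccl6, Ccl9, Ccr1, Cxcl16 and Cxcr4 were highest in MCAO 5, where Lyz2 and most other markers of that list peaked, though Ly6c2 and Plac8 did not. Ccl2 and Cxcl10 were highest in MCAO 6 and Ccl4 in MCAO 4. Endothelial markers, of which 3 of 7 were called higher with MCAO and 1 lower in hypidone than in MCAO libraries, summed to 127, 113 and 187 CPM in control, 195, 435 and 271 in MCAO and 169, 202 and 161 in hypidone libraries. Neutrophil markers summed to at most 15.0 CPM, in hypidone 7. Erythrocyte markers summed to 46.2, 41.9 and 72.8 CPM in control, 7.11, 28.0 and 4.31 in MCAO and 71.3, 184 and 187 in hypidone libraries, and all 5 were called higher in hypidone than in MCAO libraries. No listed marker in the table was at 0 in all 9 libraries. The part of cell numbers in the chemokine results was not tested.

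The 3 atypical receptors were tested and none was called in any comparison. Ackr3, a scavenger of Cxcl12, had 239, 663 and 347 counts in control, 425, 739 and 500 in MCAO and 290, 315 and 308 in hypidone libraries. MCAO lay above hypidone without overlap, with a log2 fold change of -0.76 ± 0.31 (edgeR, adjusted p = 0.118), and control 5 lay inside the MCAO range. Ackr2, a scavenger of inflammatory CC chemokines, had 145, 33 and 172 counts in control, 296, 280 and 126 in MCAO and 133, 163 and 142 in hypidone libraries. Ackr4, which scavenges Ccl19, Ccl21 and Ccl25, had 4, 6 and 3 counts in control, 0, 113 and 12 in MCAO and 0, 7 and 13 in hypidone libraries. The groups of these 2 genes overlapped in every comparison.

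Genes that work with chemokines were read from 5 lists, by their counts. Of all genes tested, 10.6% were called higher and 9.81% lower with MCAO, and 8.23% higher and 8.28% lower in hypidone than in MCAO libraries, with a median log2 fold change of 0.01 with MCAO. Of 7 chemokine system genes with other names, 5 were tested, and 2 were called higher with MCAO and none lower, with a list median of 1.97. Ccrl2, an atypical receptor-like protein, had a log2 fold change of 3.16 ± 0.43 (edgeR, adjusted p = 0.00435) and of -2.04 ± 0.40 for hypidone against MCAO (adjusted p = 0.0134). Cmklr1, the chemerin receptor, gave 1.97 ± 0.49 (edgeR, adjusted p = 0.0248), and the platelet chemokine Pf4 gave 2.67 ± 1.12 (adjusted p = 0.118). Among 9 tested genes for other chemoattractants and their receptors, 2 were higher with MCAO, Csf1r at 1.31 ± 0.25 (edgeR, adjusted p = 0.0100) and the complement receptor C3ar1 at 4.32 ± 0.91 (adjusted p = 0.0144), and hypidone against MCAO gave 1 higher and 2 lower. The median of this list with MCAO was 0.73. The complement receptor C5ar1 gave 2.84 ± 0.92 with MCAO (edgeR, adjusted p = 0.0561).

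Of the 49 genes of chemokine receptor signalling, all tested, 9 were higher with MCAO (beside 10.6% of all genes) and none lower. In hypidone against MCAO libraries 5 were lower, a share near the 8.28% of all genes, and none higher. The 3 with the lowest p were the focal adhesion adaptor Pxn at 1.18 ± 0.25 (edgeR, adjusted p = 0.0146), the haematopoietic GTPase Rac2 at 2.69 ± 0.57 (0.0148) and the protein kinase Prkcd at 1.79 ± 0.41 (0.0189). The median log2 fold change of this list was 0.37 with MCAO, beside 0.01 for all genes. Of 17 tested leukocyte adhesion genes, 3 were higher with MCAO (beside 10.6% of all genes) and 1 was lower (beside 9.81%), with a median of 0.34. No difference from all genes is read from counts this small. The endothelial ligand Icam1 gave 2.44 ± 0.45 (edgeR, adjusted p = 0.00945), the leukocyte integrin subunit Itgb2 gave 2.67 ± 0.64 (0.0218) and Cd99l2 gave -0.49 ± 0.10 (0.0139). For hypidone against MCAO, 2 of the 17 were called lower (beside 8.28%) and 1 higher (beside 8.23%), counts that are again too small to read. Of 12 tested genes for the shedding, cleavage and binding of chemokines, 5 were higher with MCAO (beside 10.6% of all genes) and none lower, and 2 were lower in hypidone than in MCAO libraries (beside 8.28%). The median of this list with MCAO was 0.95. The genes called higher with MCAO include the syndecans Sdc4 at 1.10 ± 0.21 (edgeR, adjusted p = 0.00987) and Sdc1 at 2.09 ± 0.45 (0.0154) and the membrane metalloproteinase Mmp14 at 2.08 ± 0.56 (0.0319). Between hypidone and control libraries no gene of the 5 lists was called.

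The authors' deposited table of comparisons gives q-values for 45 of the chemokine and receptor genes with MCAO, of which 11 were higher and 1 lower at a q under 0.05. These include the 8 called here, together with Ccl6, Ccl8, Cxcl1 and Cxcr4. For hypidone against MCAO the authors' deposited table holds q-values for 46, with 2 higher (Ccl27a and Cx3cl1) and 8 lower, which include the 4 called here. The share of all genes in the deposited table is not given here, so no enrichment is read from these counts. The DESeq2 run made here called 2409 higher and 2073 lower of 15571 genes with MCAO. For hypidone against MCAO it called 1828 and 2174 of 15923.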

How the data were processed

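RNA was sequenced from 9 mouse brain libraries, and groups were taken from the labels. The authors deposited unnormalized read counts and FPKM values for each gene symbol. FPKM divides a count by the library total and by a length that is the same in all libraries. Their own comparisons were deposited as fold changes (a ratio) with q-values. The mm10 build and DESeq2 are named in the submitters' processing notes. Which aligner, counter and strand setting were used is not given in the sources used here. How reads were split between copies or overlapping genes is therefore unknown.

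Genes were kept with edgeR's filterByExpr (14756 of 18138), scaled by TMM and tested in 1 quasi-likelihood fit of all 9 libraries (edgeR 4.0.16 in R 4.3.3, 6 residual degrees of freedom), two-sided, with Benjamini-Hochberg adjustment over all genes tested at 0.05. Standard errors were taken as the estimate over the root of F. The fit was run on simulated counts in which each gene had the same spread in all groups. That run could not show the effect of a spread that differs between groups, as it did here. No libraries were duplicates by a chi-square test. Genes with at most 3 counts in a group were given as count ratios with exact 95% intervals. Symbols were matched to GENCODE M21 (GRCm38, the mm10 build), where 50 of 51 matched 1 gene, and promoters to RefSeq (GRCm38.p6), where 39 matched. The promoters shown were chosen after their counts were seen. A member is not reported here and enters the counts only. Every other member was named, genes under 20 counts by total (more detail for Cxcl2, Cxcl17 and Cxcr6 was added after their values were seen), and each list's 3 lowest p were named. The members and lists were chosen with earlier results of these data known. Alternatives were DESeq2 size factors, DESeq2 1.42.0, no filter, only the groups compared, a replicate block and leaving out each library.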

Additional observations from a re-analysis of the deposited data

How the results depend on the processing

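The number of chemokine and receptor genes called was 8 for MCAO against control and 4 for hypidone against MCAO in the reported fit. It was the same with DESeq2 size factors, which tested 30 of these genes. Without a filter it was also the same, but there 51 of them were tested, so the share called was smaller. It was 14 and 10 with DESeq2, which was also run on 51, and 3 and 5 when only the groups compared were fitted. Leaving out 1 library at a time gave 3 (without control 6) to 14 (without MCAO 4) and 1 (without hypidone 7) to 11 (without MCAO 4). For hypidone against control it was 0 in every alternative run. Calls over all genes moved with these settings. Without a filter they were 1408 higher and 1344 lower of 18138 with MCAO, and 1114 and 1035 for hypidone against MCAO. The share of the chemokine and receptor genes called with MCAO was then near that of all genes. DESeq2 called 2409 higher and 2073 lower of 15571 genes with MCAO. For hypidone against MCAO it called 1828 and 2174 of 15923. Fits of only the groups compared called 345 and 337 with MCAO and 1050 and 970 for hypidone against MCAO. They tested 24 and 30 of the chemokine and receptor genes. Control and MCAO share title numbers, but same-numbered libraries did not deviate together in every pair (correlations of 0.118, 0.123 and -0.042). With the number as a replicate block, edgeR called 0 of the 24 of these genes that it tested and 0 of all genes. Of the 24, 9 had an unadjusted p under 0.05, but the share of all genes under it is not given here. The estimates of Ccl12 (-0.46) and Cxcl12 (-0.24) turned negative. Cxcl10 in hypidone against control was near 0 and gave -0.0036 with DESeq2 size factors and -0.0059 with DESeq2. Leaving out a library changed the sign of the following log2 fold changes, given as their lowest and highest values. For MCAO against control they ran for Ccl12 from -1.37 to 1.02, Ccl28 from -0.14 to 0.42, Ccl5 from -0.0598 to 2.69, Ccl9 from -0.73 to 1.55, Ccr2 from -2.20 to 3.80, Cx3cr1 from -1.17 to 0.16 and Cxcl12 from -0.82 to 0.39. For hypidone against MCAO they ran for Ackr4 from -3.36 to 0.22, Ccl12 from -0.50 to 1.96, Ccl21a from -0.35 to 0.28, Ccl5 from -1.37 to 1.29, Ccl6 from -1.99 to 0.71, Ccl7 from -0.55 to 0.62, Ccl8 from -3.30 to 1.96, Ccl9 from -1.05 to 1.23, Ccr2 from -0.39 to 5.15 and Cxcl12 from -0.0853 to 1.13. For hypidone against control they ran for Ackr2 from -0.20 to 0.63, Ackr4 from -0.30 to 1.18, Ccl12 from -0.00509 to 0.91, Ccl27a from -0.19 to 0.36, Ccl27b from -0.65 to 1.01, Cxcl10 from -0.55 to 0.92, Cxcl14 from -0.0615 to 0.33 and Cxcr4 from -1.46 to 0.51. Ccl2 with MCAO was not tested with a replicate block or in the fit of 2 groups. The causes were not tested. With 3 libraries a group and under 20 counts in all for 8 genes, small differences were not detectable at this depth.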

Other observations

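Hypidone 7 held the highest count of Ccr2 (79), Cxcl9 (63), Ccl7 (15) and Ccl27b (222), and the second highest of Ccl8 (58) after MCAO 5. Its summed monocyte and macrophage markers were 107 CPM and its fibroblast and pericyte markers 482 CPM, against 29.9 and 192 in hypidone 2 and 45.1 and 245 in hypidone 8. Control 5 had the fewest counts of its group for Ccl27a (1075), Ackr2 (33) and Ccl27b (6) and the most for Ackr3 (663) and Cxcr4 (134). In control 5, hippocampal markers summed to 494 CPM and choroid plexus markers to 196 CPM. The part of these markers in the counts was not tested.

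The share of Cx3cl1 in all chemokine and receptor counts was 62.4% in MCAO 4, 34.9% in MCAO 5 and 52.0% in MCAO 6. It was between 66.6% and 74.3% in control libraries and between 68.1% and 74.9% in hypidone libraries. The FPKM ratio of Cx3cl1 to its receptor Cx3cr1 was 18.2, 11.2 and 22 in control, 24.5, 3.19 and 14.1 in MCAO and 18, 16.7 and 17.3 in hypidone libraries. The hypidone libraries thus lay close together, while MCAO libraries held both the highest and the lowest ratio.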
